A study of Homo sapiens with 12 samples.

Results

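The response of T47D cells to the collagen mimic GFOGER, relative to the laminin mimic IKVAV, was measured on day 3 of culture in a synthetic matrix. The comparison took in the 3 libraries with GFOGER and the 3 with IKVAV, 6 of the 12 samples of the series, and every gene that passed an expression filter in them, 13642 of the 23368 genes in the table. T47D is an ER+ luminal A breast cancer line that was derived from a pleural effusion of a patient with ductal carcinoma. All 6 samples shared the cells, the day, the serum-containing medium and the matrix, a poly(ethylene glycol) hydrogel closed with a peptide crosslinker that cells can cleave. They differed in the adhesive peptide, GFOGER or IKVAV. RNA was taken after the matrices had been broken down with collagenase, and several gels were combined for each library, so that a replicate is a set of gels of 1 cell line and not a separate tumor. Values are read counts on genes, from poly(A) RNA, and levels are given as cpm, counts scaled to a common library size after TMM normalization. Fold changes are log2 values for GFOGER relative to IKVAV, each with its standard error (SE). The adjusted p comes from the quasi-likelihood test of edgeR, adjusted by Benjamini and Hochberg's method over the 13642 genes, and a gene is called where it is below 0.05 and the difference is over 2-fold.

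Cells hold on to fibrillar collagen mainly through the integrins α1β1 and α2β1 and the receptor tyrosine kinase DDR1. The GFOGER sequence is a site in collagen that these integrins bind. Laminin is held by α3β1, α6β1, α6β4 and dystroglycan, and the short IKVAV sequence comes from a laminin chain. Ligated integrins signal through focal adhesions to kinases, the actin cytoskeleton and early response transcription factors. The mammary epithelium in tissue rests on a laminin-rich basement membrane, while invading cells meet collagen.

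Between 14338238 and 17089379 reads were counted on genes per library and 16636 to 16852 genes were detected. A count of 0 in the shallowest library allows a level of up to 0.209 cpm (3 counts), for counting error only. The luminal markers were at a summed 7202 to 7668 cpm with GFOGER and 7572 to 8347 cpm with IKVAV, with all 9 markers expressed. The 6 fibroblast markers together were at 54.1 to 64.8 cpm, nearly all of it COL1A1. The summed markers of basal, mesenchymal, immune, endothelial and adipocyte cells were each at most 6.07 cpm in every library and PECAM1 was at 0 in all. The biological coefficient of variation was 0.0975. In bulk RNA, fewer cells of a type and less RNA per cell cannot be told apart.

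The IKVAV libraries did not form a tight group, and this touches most of what follows. The deposited RPKM values imply a total for each library, and these totals fall into 2 sets. The 3 GFOGER libraries and IKVAV replicate 3 have implied totals of 5291494 to 5774966 reads, which makes the reads counted on genes 296% to 309% of the total. For IKVAV replicates 1 and 2 the totals are 19898878 and 21774757, and the counted reads are 72.1% and 72.9% of them. IKVAV replicate 3 also stood apart in expression. The root mean square distance in log2 cpm was 0.29 between IKVAV replicates 1 and 2 and 0.397 to 0.399 between either of them and replicate 3, beside 0.328 to 0.371 between replicate 3 and the GFOGER libraries. For IKVAV replicates 1 and 2 the set and the mimic cannot be told apart, so results are given with all 6 libraries, without IKVAV replicate 3, and with GFOGER against IKVAV replicate 3 alone, the pair of groups that shares a set. In that last fit the lone library is assumed to vary like the GFOGER libraries. The 3 fits share the GFOGER libraries.

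**Figure D1:**
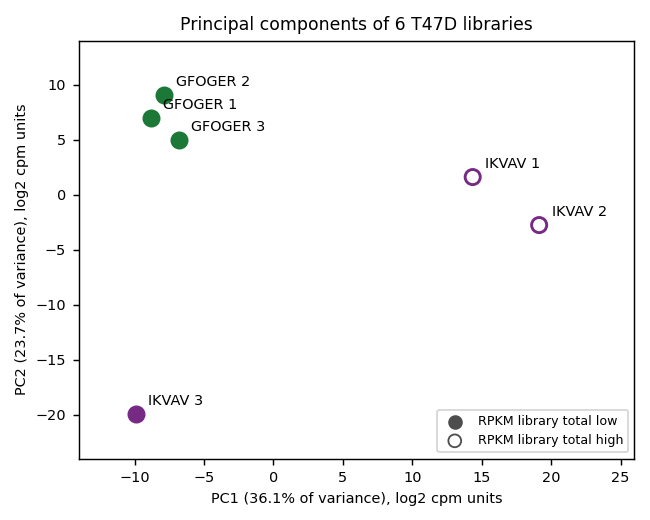
Principal components of log2 cpm for the 6 T47D libraries over the 2000 most variable genes, PC1 (36.1% of the variance) against PC2 (23.7%), with 1 point per library labelled by mimic and replicate number. Filled circles have the low and open circles the high RPKM library totals. IKVAV replicates 1 and 2 lie at 14.4 and 19.1 on PC1 and the other libraries between -9.93 and -6.82, while IKVAV replicate 3 lies at -19.9 on PC2 and the others between -2.77 and 9.09.

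The median absolute log2 difference was 0.11 over the genes tested. Of 13642 genes 15 (0.11%) had an adjusted p below 0.05, of which 6 were higher and 9 lower with GFOGER, and 4 (0.0293%) were called. The count of called genes was 34 by edgeR's exact test, 35 by its likelihood ratio test, 146 by voom, and 0 to 92 with 1 library left out, the highest without IKVAV replicate 3. By edgeR's quasi-likelihood test the called genes were VTCN1, CYP1A1, GJA1 and FOSB, and all were lower with GFOGER. At an unadjusted p below 0.05 there were 715 higher genes (5.24%) and 807 lower genes (5.92%). DESeq2 found 0.572% of genes at an adjusted p below 0.05, and limma's voom, which gave IKVAV replicate 3 a weight of 0.295 beside 3.82 for GFOGER replicate 1, found 4.45% higher and 6.6% lower. For each of the 15 genes the libraries of the mimics did not overlap, which was so for 16% of all genes tested. The difference kept its sign without any single library. Both follow largely from choosing these genes by the same values, so neither is a separate check. The adjusted p of GPNMB stayed below 0.05 whichever library was left out, and that of the other 14 rose above it without at least 1 library.

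**Figure D2:**
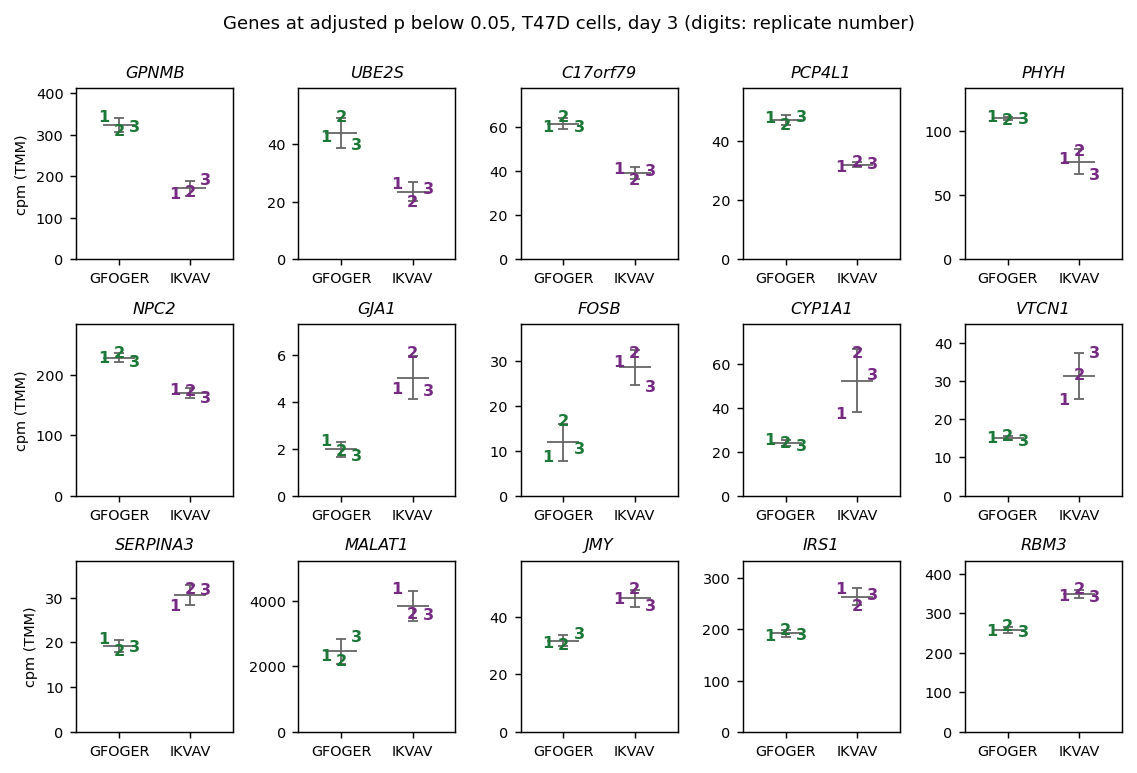
Level (cpm after TMM normalization, linear axes from 0) of the 15 genes with an adjusted p below 0.05, in GFOGER (green) and IKVAV (purple) libraries of T47D cells. Digits are the replicate numbers and mark each library's value, and the gray line and bars are the mean and SD of 3 libraries. In every gene the GFOGER libraries lie on one side of the IKVAV libraries, for GPNMB at 309.6 to 344 against 158 to 192 cpm.

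Among membrane and secreted proteins, GPNMB, a transmembrane glycoprotein of melanosomes and lysosomes, had the smallest p (chr7:23286316-23314729, hg19). It was at 344, 309.6 and 318 cpm in GFOGER replicates 1 to 3 and at 158, 162 and 192 cpm in IKVAV replicates 1 to 3. The difference was 0.92 (SE 0.0874, adjusted p 0.000303). It was 1.01 without IKVAV replicate 3 and 0.75 against that replicate alone, so GPNMB was higher with GFOGER than in the IKVAV libraries of either set of RPKM totals. VTCN1, also called B7-H4, is a B7 family protein that restrains T cells (chr1:117686209-117753582). It was at 15.0, 15.5 and 14.4 cpm with GFOGER and 25.0, 31.4 and 37.3 cpm with IKVAV, a difference of -1.07 (SE 0.139, adjusted p 0.00945), with IKVAV replicate 3 the highest of the 6 libraries. The gap junction protein connexin 43, encoded by GJA1 (chr6:121756745-121770873), was low throughout, at 2.33, 1.90 and 1.70 cpm with GFOGER and 4.53, 6.07 and 4.44 cpm with IKVAV. Its difference of -1.34 (SE 0.233, adjusted p 0.0445) was the largest of the 15 on the log2 scale. SERPINA3, a secreted serine protease inhibitor (chr14:95078714-95090390), was at 20.7, 18.1 and 18.9 cpm with GFOGER and 28.1, 31.9 and 31.7 cpm with IKVAV, a difference of -0.67 (SE 0.112, adjusted p 0.0394). Both groups were narrow for SERPINA3 and IKVAV replicate 3 sat with its own group.

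Of the genes for signaling and transcription, FOSB, an AP-1 subunit (chr19:45971253-45978437), was at 8.51, 16.6 and 10.4 cpm with GFOGER and 29.6, 31.7 and 24.3 cpm with IKVAV. The difference was -1.27 (SE 0.205, adjusted p 0.0469), and the spread among the GFOGER libraries was wide. IRS1, the adaptor that links the insulin and IGF1 receptors to downstream kinases (chr2:227596033-227663506), was at 187, 199 and 189.5 cpm with GFOGER and 278, 246 and 267 cpm with IKVAV. Its difference was smaller but even across libraries, -0.46 (SE 0.077, adjusted p 0.0394), and -0.45 without IKVAV replicate 3. JMY, which nucleates actin filaments and assists p53 in transcription (chr5:78531925-78623038), was at 30.8, 30.2 and 33.9 cpm with GFOGER and 46.1, 49.6 and 43.7 cpm with IKVAV (-0.55, SE 0.0995, adjusted p 0.0489). UBE2S, the ubiquitin-conjugating enzyme that extends chains for the anaphase-promoting complex (chr19:55912650-55919325), was higher with GFOGER. Its levels were 42.6, 49.7 and 39.7 cpm with GFOGER and 26.2, 19.8 and 24.4 cpm with IKVAV, a difference of 0.90 (SE 0.124, adjusted p 0.0112). C17orf79, named COPRS in RefSeq and known to tether the methyltransferase PRMT5 to histones (chr17:30178884-30186326), was at 60.0, 64.7 and 60.2 cpm with GFOGER and 41.0, 35.9 and 40.1 cpm with IKVAV (0.66, SE 0.0941, adjusted p 0.0133).

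Genes of RNA biology and lipid handling made up most of the rest. MALAT1, an abundant nuclear long noncoding RNA (chr11:65265233-65273939), was at 2316, 2167 and 2878 cpm with GFOGER and 4354, 3587 and 3567 cpm with IKVAV, a difference of -0.64 (SE 0.109, adjusted p 0.0445). The highest GFOGER library stayed below the lowest IKVAV library. RBM3, a cold-inducible RNA-binding protein (chrX:48432741-48439553), was at 255, 267 and 253 cpm with GFOGER and 343, 361 and 342 cpm with IKVAV (-0.43, SE 0.0724, adjusted p 0.0394). NPC2, which hands cholesterol out of the lysosome (chr14:74946643-74960084), was at 229, 237 and 223 cpm with GFOGER and 176, 174 and 162 cpm with IKVAV (0.43, SE 0.0752, adjusted p 0.0446). PHYH, the peroxisomal hydroxylase that starts the breakdown of phytanic acid (chr10:13319796-13342130), was at 112, 109 and 109.8 cpm with GFOGER and 78.2, 84.8 and 65.7 cpm with IKVAV (0.53, SE 0.0957, adjusted p 0.0489). The differences of NPC2 and PHYH were larger against IKVAV replicate 3 alone, at 0.50 and 0.74, than without it, at 0.39 and 0.43. PCP4L1 (chr1:161228517-161255240) was at 47.7, 45.1 and 48.1 cpm with GFOGER and 31.0, 32.8 and 32.0 cpm with IKVAV (0.56, SE 0.0939, adjusted p 0.0394), and neither group spread by more than a few cpm.

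CYP1A1, the cytochrome P450 enzyme that oxidizes polycyclic aromatic compounds and the classic target of the aryl hydrocarbon receptor, completed the list (chr15:75011883-75017877). Its levels were 25.3, 23.9 and 22.4 cpm with GFOGER and 37.0, 65.1 and 55.2 cpm with IKVAV. The GFOGER libraries were close together and the IKVAV libraries were spread. The difference was -1.14 (SE 0.168, adjusted p 0.0394), with -1.10 (adjusted p 0.00524) without IKVAV replicate 3 and -1.22 against it alone. The receptor pairs with ARNT after binding a ligand and the pair binds a core of GCGTG. The windows from 250 bases before to 50 bases after the transcription start of CYP1A1 and of TIPARP, another target of the receptor, are shown 5′ to 3′ on the strand of the gene, from RefSeq on GRCh38.p14, since CYP1A1 was called and TIPARP belongs to the same pathway. Capitals mark the core, which reads CACGC on the opposite strand.
CYP1A1, chr15:74725479-74725778, minus strand: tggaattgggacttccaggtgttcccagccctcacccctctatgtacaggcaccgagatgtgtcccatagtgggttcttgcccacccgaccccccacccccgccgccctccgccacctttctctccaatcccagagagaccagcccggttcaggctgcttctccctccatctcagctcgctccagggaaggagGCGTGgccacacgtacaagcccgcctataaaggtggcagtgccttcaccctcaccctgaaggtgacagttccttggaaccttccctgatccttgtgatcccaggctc
TIPARP, chr3:156674340-156674639, plus strand: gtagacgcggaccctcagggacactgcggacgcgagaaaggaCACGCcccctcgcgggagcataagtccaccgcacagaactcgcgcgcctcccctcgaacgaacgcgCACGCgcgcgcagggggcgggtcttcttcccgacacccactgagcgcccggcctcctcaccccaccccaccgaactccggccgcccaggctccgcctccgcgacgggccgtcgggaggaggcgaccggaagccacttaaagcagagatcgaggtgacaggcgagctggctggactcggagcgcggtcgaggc
The core starts 57 bases before the start site of CYP1A1, and 208 and 142 bases before that of TIPARP. It is a short and common motif. Searched on both strands it lies in 36.5% of the 35116 promoter windows in the table and in 10 of the windows of the 15 genes (all matched by symbol) with an adjusted p below 0.05. Of these 15 windows 3 hold the heat shock core GAANNTTC or TTCNNGAA (CYP1A1, RBM3 and SERPINA3), beside 13.5% of all windows, 3 hold the AP-1 motif TGANTCA (GPNMB, VTCN1 and GJA1), beside 7.71%, and 1 holds the cAMP response element TGACGTCA (UBE2S), beside 1.85%.

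Of the 10 genes listed for the aryl hydrocarbon receptor pathway 8 were tested, and all 8 had a level lower with GFOGER on average, between -1.14 and -0.02. At an unadjusted p below 0.05, which 5.92% of all genes met in this direction, 5 of the 8 were lower, and at the adjusted p CYP1A1 alone was. The receptor itself, AHR, was at 91.1, 82.0 and 99.0 cpm with GFOGER and 101, 97.8 and 125 cpm with IKVAV (-0.25, adjusted p 0.392), so that the groups overlapped. Its repressor AHRR, which the receptor induces, was at 5.75, 5.15 and 5.32 cpm with GFOGER and 9.34, 8.77 and 6.39 cpm with IKVAV (-0.59, adjusted p 0.254). TIPARP, an ADP-ribosyltransferase that feeds back on the receptor, was at 116, 105 and 117 cpm with GFOGER and 129, 162 and 224 cpm with IKVAV (-0.61, adjusted p 0.244). The groups of AHRR and TIPARP did not overlap, but IKVAV replicate 3 was nearest to GFOGER for AHRR and farthest from it for TIPARP. NQO1, a quinone reductase shared with the NRF2 pathway, was at 597, 574 and 669.5 cpm with GFOGER and 774, 1061 and 563 cpm with IKVAV (-0.38, adjusted p 0.559), with IKVAV replicate 3 below every GFOGER library. Without IKVAV replicate 3 an adjusted p below 0.05 was reached by 5 of 8 genes, all lower with GFOGER, beside 4.93% of all genes in that direction. Against IKVAV replicate 3 alone it was reached by 3 of 9, all lower, beside 1.97%.

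AP-1 subunits and other immediate early genes are transcribed within minutes of growth factor, adhesion or stress signals. Of 18 tested 17 had a lower average with GFOGER, and the median difference was -0.29, beside -0.00103 over all genes. A lower average was found for 15 without IKVAV replicate 3 and for 11 against it alone, with medians of -0.23 and -0.15. At an unadjusted p below 0.05, 6 were lower and 0 higher, beside 5.92% and 5.24% of all genes, and FOSB was the 1 gene at the adjusted p. With IKVAV replicate 3 left out, 4 were lower and 1 higher at an adjusted p below 0.05, beside 4.93% and 3.03%, and against it alone 8 were lower, beside 1.97%. FOS, its relative, was at 19.4, 35.4 and 25.4 cpm with GFOGER and 61.3, 76.4 and 24.4 cpm with IKVAV (-1.01, adjusted p 0.507). IKVAV replicate 3 lay within the range of GFOGER for FOS, and the difference was -1.37 (adjusted p 0.0148) without it and 0.13 against it alone. KLF4, a zinc finger factor of differentiation, went the other way within the IKVAV group, at 32.1, 37.2 and 30.5 cpm with GFOGER and 38.3, 41.0 and 67.1 cpm with IKVAV (-0.56, adjusted p 0.332). KLF6, of the same family, was at 160.0, 159.8 and 153 cpm with GFOGER and 189.5, 169 and 261 cpm with IKVAV (-0.39, adjusted p 0.318). The proliferation regulator MYC was at 112, 114 and 107 cpm with GFOGER and 133, 123 and 177 cpm with IKVAV (-0.39, adjusted p 0.231). For KLF4, KLF6, MYC and the AP-1 subunit FOSL2 the groups did not overlap and IKVAV replicate 3 was the highest library. The difference against it alone was -1.02 for KLF4, -0.73 for KLF6, -0.68 for MYC and -0.74 for FOSL2, each with an adjusted p below 0.05. Without it the same genes were at -0.26, -0.19, -0.22 and -0.30, none of them past the threshold. EGR3 turned with the library, with 9.61, 10.3 and 7.78 cpm with GFOGER and 5.58, 5.45 and 22.9 cpm with IKVAV.

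The heat shock response is run by HSF1, which raises chaperones that hold and refold proteins. Several of its genes separated the IKVAV replicates more than the mimics. HSPA8, the constitutive 70 kDa chaperone of the cytosol, was at 1836, 1764 and 1947 cpm with GFOGER, 3894 and 4309 cpm in IKVAV replicates 1 and 2, and 2109.9 cpm in IKVAV replicate 3. The groups did not overlap, but the difference of -0.89 (SE 0.262, adjusted p 0.329) missed the threshold, while it was -1.15 (adjusted p 9.28e-11) without IKVAV replicate 3 and -0.20 (adjusted p 0.281) against it alone. The promoter window of HSPA8 (RefSeq, GRCh38.p14) is shown because it holds the heat shock core 4 times, in 2 stretches where the core overlaps itself (capitals).
HSPA8, chr11:123062087-123062386, minus strand: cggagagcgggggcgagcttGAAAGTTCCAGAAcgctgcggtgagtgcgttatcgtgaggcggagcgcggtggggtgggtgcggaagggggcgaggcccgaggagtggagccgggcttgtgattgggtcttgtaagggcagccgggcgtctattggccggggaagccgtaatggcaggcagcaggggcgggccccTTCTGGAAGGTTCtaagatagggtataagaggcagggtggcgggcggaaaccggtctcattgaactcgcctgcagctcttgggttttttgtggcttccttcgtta
The matches start 230, 225, 55 and 50 bases before the start site. Of the other chaperone windows searched, DNAJA1 holds 3 matches, HSPA1A and HSPA1B 1 each, and DNAJB1, HSPH1 and HSP90AA1 0. HSPA1A, an inducible 70 kDa chaperone, was at 55.3, 60.8 and 55.7 cpm with GFOGER and 119.8, 117 and 55.5 cpm with IKVAV, and HSPA1B at 32.0, 33.1 and 30.2 against 68.8, 71.9 and 21.95 cpm. These 2 genes are near-identical copies, and the split of reads between them is uncertain. The co-chaperone DNAJB1 was at 88.5, 94.6 and 91.8 cpm with GFOGER and 130.4, 132 and 98.8 cpm with IKVAV (-0.40, adjusted p 0.175). FKBP4, which serves steroid receptors with HSP90, ran opposite, at 948, 972 and 932 cpm with GFOGER and 738, 740.3 and 889.5 cpm with IKVAV (0.27, adjusted p 0.261). In HSPA8, DNAJB1 and FKBP4, IKVAV replicate 3 lay between the GFOGER libraries and the other IKVAV libraries. Of the 25 genes tested 4 were lower and 1 higher at an unadjusted p below 0.05, beside 5.92% and 5.24% of all genes. At the adjusted p 0 passed by edgeR or DESeq2. By voom 5 were lower and 1 higher, beside 6.6% and 4.45% of all genes. When IKVAV replicate 3 was left out, 6 were lower and 1 higher at an adjusted p below 0.05, beside 4.93% and 3.03% of all genes. The median difference was -0.07 without that replicate and -0.013 against it alone.

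**Figure D3:**
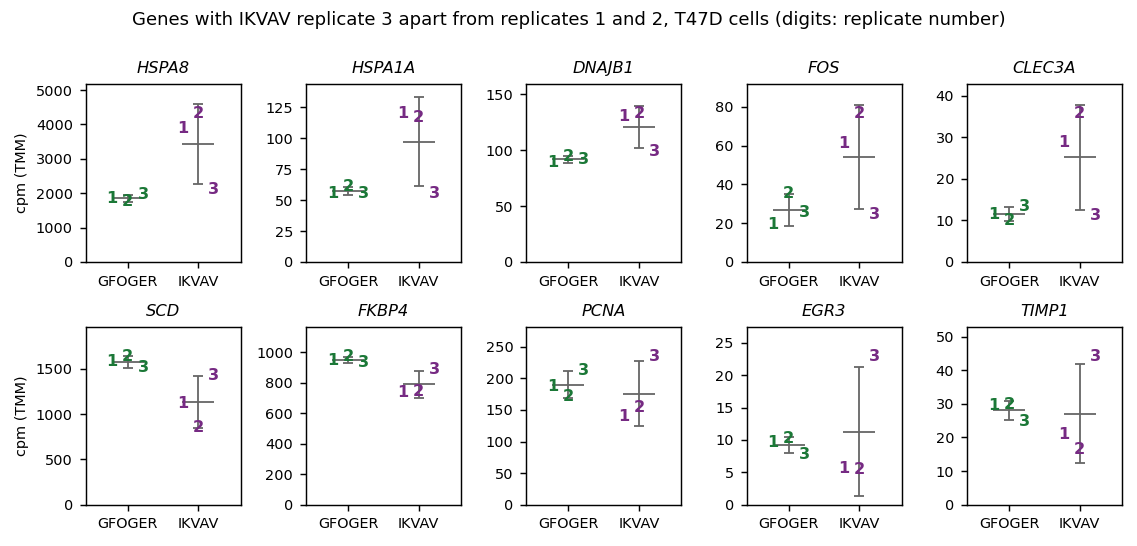
Level (cpm after TMM normalization, linear axes from 0) of 10 genes in which IKVAV replicate 3 lay apart from IKVAV replicates 1 and 2, chosen after their values were seen, with GFOGER libraries in green and IKVAV libraries in purple. Digits are the replicate numbers and mark each library's value, and the gray line and bars are the mean and SD of 3 libraries. For HSPA8 the GFOGER libraries are at 1764 to 1947 cpm, IKVAV replicate 3 at 2109.9 cpm and the other IKVAV libraries at 3894 and 4309 cpm.

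How often this happened was counted over the genes with an adjusted p below 0.05 without IKVAV replicate 3. There were 1101 of them among 13830 tested, 419 higher (3.03%) and 682 lower (4.93%) with GFOGER, and 92 (0.665%) were also over 2-fold. IKVAV replicate 3, which took no part in choosing them, lay within the range of the 3 GFOGER libraries in 345 of the 1101 and beyond that range, away from the other IKVAV libraries, in 302, together 58.8%. It lay between the groups in 327, within the range of IKVAV replicates 1 and 2 in 75, and beyond them in 52. The groups it joined therefore differed from gene to gene. With GFOGER against IKVAV replicate 3 alone, 550 of 13988 genes had an adjusted p below 0.05, 274 higher (1.96%) and 276 lower (1.97%). Between IKVAV replicate 3 and IKVAV replicates 1 and 2, which carry the same label, 1170 genes did and 179 of them were also over 2-fold. The part of the RPKM totals in these differences was not tested.

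Genes of cholesterol and fatty acid synthesis, which SREBP factors raise when sterols are short, had a higher average with GFOGER in 24 of 25 tested, with a median difference of 0.22. At an unadjusted p below 0.05, 11 were higher and 0 lower, beside 5.24% and 5.92% of all genes, and 0 passed the adjusted p by edgeR or DESeq2, while 16 were higher by voom, beside 4.45% of all genes. SCD, the desaturase that makes oleic acid, was at 1576, 1635 and 1509 cpm with GFOGER and 1114, 857 and 1424 cpm with IKVAV (0.48, adjusted p 0.294). EBP, a sterol isomerase, was at 136, 138 and 129 cpm with GFOGER and 99.8, 94.0 and 127 cpm with IKVAV (0.33, adjusted p 0.256). Both kept the groups apart, with IKVAV replicate 3 close under the GFOGER libraries. MVD, of the mevalonate pathway, was at 70.9, 85.0 and 69.8 cpm with GFOGER and 59.1, 52.6 and 64.7 cpm with IKVAV (0.36, adjusted p 0.226). Without IKVAV replicate 3, 16 of the 25 genes were higher at an adjusted p below 0.05 and the median was 0.33, beside 3.03% of all genes. Against it alone 0 were by edgeR, with 1 higher and 2 lower at an unadjusted p below 0.05, beside 8.76% and 7.85% of all genes, and the median was 0.01.

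S phase and G2/M genes followed the same division of libraries. Of 42 S phase genes 37 had a higher average with GFOGER (median 0.11), with 7 higher and 0 lower at an unadjusted p below 0.05, beside 5.24% and 5.92% of all genes, and by voom 16 were higher at the adjusted p, beside 4.45%. With IKVAV replicate 3 left out, 18 were higher at an adjusted p below 0.05, beside 3.03% of all genes (median 0.26). Against it alone 0 were by edgeR, with 1 higher and 8 lower at an unadjusted p below 0.05, beside 8.76% and 7.85%, and the median was -0.10. PCNA, the sliding clamp of DNA replication, was at 186, 171 and 213 cpm with GFOGER and 139, 153 and 234 cpm with IKVAV, from the lowest to the highest of the 6 libraries within the IKVAV group. Of 54 G2/M genes 4 were higher and 0 lower at an unadjusted p below 0.05, beside 5.24% and 5.92% (median 0.05). When IKVAV replicate 3 was left out, 16 were higher and 0 lower at that level, beside 10.1% and 12.6%, and against it alone 2 were higher and 8 lower (medians 0.14 and -0.06). UBE2C, which works with UBE2S in the anaphase-promoting complex pathway, was at 201, 211 and 190.5 cpm with GFOGER and 154, 162 and 175 cpm with IKVAV (0.29, adjusted p 0.185), with no overlap. CCND1, cyclin D1, was at 389, 422 and 374 cpm with GFOGER and 308, 257 and 352 cpm with IKVAV (0.37, adjusted p 0.185). Of 34 replication-dependent histone genes tested, whose main transcripts lack a poly(A) tail, 6 were lower and 0 higher at an unadjusted p below 0.05, beside 5.92% and 5.24% of all genes, with a median of -0.27. The histone median was -0.29 without IKVAV replicate 3 and -0.22 against it alone, so these genes did not follow that division. Of 80 cytosolic ribosomal protein genes 2 were higher and 2 lower at an unadjusted p below 0.05. Without IKVAV replicate 3 the ribosomal counts were 4 higher and 2 lower, and against it alone 2 higher and 23 lower, beside 8.76% and 7.85% of all genes, with 64 of 80 averages lower with GFOGER.

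Interferon-stimulated genes, which act against viruses and aid antigen presentation, had a higher average with GFOGER in 17 of 18 tested (median 0.35). The median was 0.58 without IKVAV replicate 3 and 0.20 against it alone. By library, the list's median log2 cpm relative to the GFOGER mean was -0.17, -0.13 and 0.25 in the GFOGER replicates and -0.46, -0.60 and -0.16 in the IKVAV replicates, so that GFOGER replicate 3 was high and IKVAV replicate 3 lay within the GFOGER range. At an unadjusted p below 0.05, 6 were higher and 0 lower, beside 5.24% and 5.92% of all genes, and 0 passed the adjusted p by edgeR or DESeq2, while 3 were higher by voom, beside 4.45%. OAS1, which makes the messenger that activates RNase L, was at 3.92, 5.95 and 11.6 cpm with GFOGER and 3.70, 2.94 and 3.89 cpm with IKVAV (1.03, adjusted p 0.318). OAS2, its relative, was at 19.7, 23.5 and 41.3 cpm with GFOGER and 17.4, 14.03 and 18.6 cpm with IKVAV (0.76, adjusted p 0.339). In both genes GFOGER replicate 3 was well above its own group, and in ISG15 it was at 6.55 cpm beside 2.57 and 2.02 cpm. IRF9, the DNA-binding part of the interferon-activated complex, did not rest on that library, with 15.7, 15.0 and 17.4 cpm with GFOGER and 12.3, 9.20 and 10.9 cpm with IKVAV (0.57, adjusted p 0.173). OAS3 was at 201, 220.1 and 249 cpm with GFOGER and 183, 157 and 199 cpm with IKVAV (0.31, adjusted p 0.266). Of the 13 genes of the B7 family and class I antigen presentation that were tested, VTCN1 was the 1 with an adjusted p below 0.05, and the other 12 had a higher average with GFOGER, 3 of them at an unadjusted p below 0.05, beside 5.24% of all genes.

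**Figure D4:**
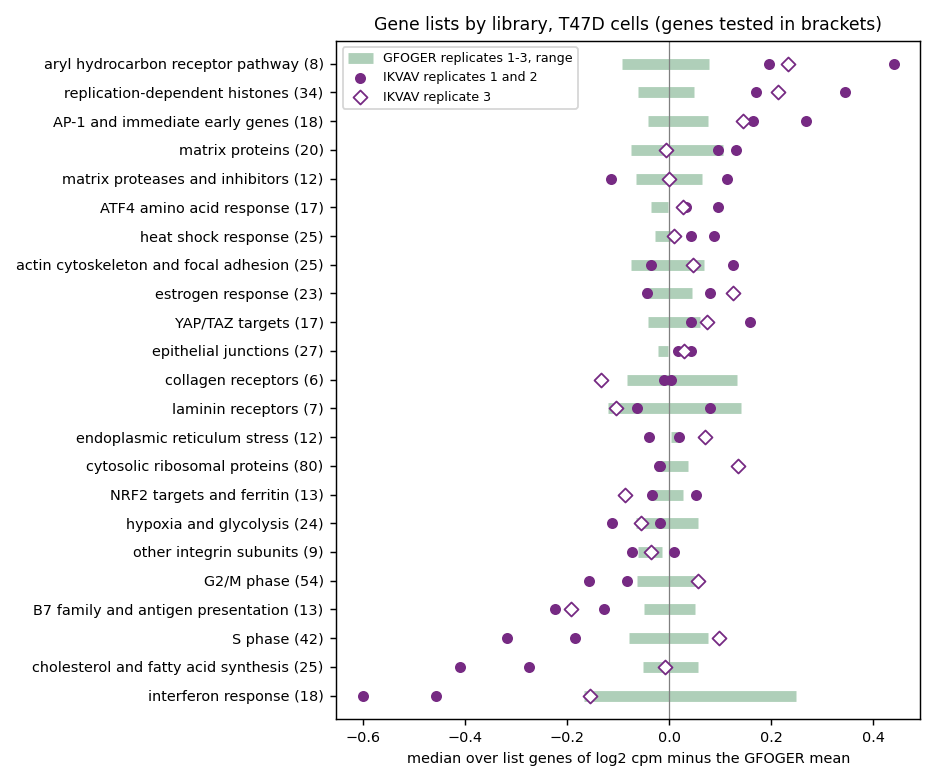
Median over the tested genes of each of 23 gene lists (rows, number of genes in brackets) of log2 cpm minus the mean of the GFOGER libraries, for each T47D library. Green bars span the 3 GFOGER libraries, filled circles are IKVAV replicates 1 and 2, and open diamonds are IKVAV replicate 3. For cholesterol and fatty acid synthesis IKVAV replicates 1 and 2 lie at -0.28 and -0.41 and IKVAV replicate 3 at -0.01, within the GFOGER range of -0.05 to 0.06.

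With all 6 libraries 0 genes tested for receptors of collagen or laminin had an unadjusted p below 0.05 by edgeR. Of all genes 5.24% were higher and 5.92% lower at that level. By voom 2 laminin receptor genes, ITGA3 and RPSA, were higher at that level, beside 1676 higher and 1956 lower of all 13642 genes. Neither passed the adjusted p. With IKVAV replicate 3 left out, RPSA alone of the receptor genes was at an unadjusted p below 0.05 by edgeR. It was higher, beside 10.1% of all genes. Against IKVAV replicate 3 alone the differences lay between -0.76 and 0.68 for collagen receptors and between -0.18 and 0.33 for laminin receptors. Of 9 collagen receptor genes 6 were tested, with differences from -0.32 to 0.09, and of 7 laminin receptor genes all 7, with differences from -0.03 to 0.21. The β1 subunit ITGB1, which both kinds of receptor share, was at 279 to 342 cpm over the 6 libraries, and the α2 subunit of the collagen receptor, ITGA2, at 47.3 to 56.9 cpm. ITGA1, the α1 subunit, was at 0.547 to 1.19 cpm, and ITGA11 had at most 1 count in a library. The collagen-activated kinase DDR1 was at 588 to 726 cpm. Among laminin receptors ITGA6 was at 83.2 to 94.3 cpm, ITGB4 at 176 to 228 cpm and DAG1, dystroglycan, at 711 to 867 cpm. ITGA10, a collagen-binding subunit, was at 10.2, 11.1 and 9.18 cpm with GFOGER and 11.6, 9.08 and 17.1 cpm with IKVAV, and its difference was -0.32 (adjusted p 0.586) with all libraries and -0.76 (adjusted p 0.0017) against IKVAV replicate 3 alone. Of the 9 other integrin subunits tested, the leukocyte subunit ITGB7 was near the limit of detection at 0.734, 0.858 and 1.17 cpm with GFOGER and 2.23, 1.88 and 1.52 cpm with IKVAV (-1.01, adjusted p 0.27).

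Differences of matrix protein genes lay between -0.41 and 0.34 with all 6 libraries. Of 20 tested 16 had a lower average with GFOGER (median -0.14). At an unadjusted p below 0.05, 3 were lower and 0 higher, beside 5.92% and 5.24% of all genes. At the adjusted p 0 passed by edgeR, 1 was lower by DESeq2 (0.572% of all genes passed) and 4 were lower by voom (6.6%). Without IKVAV replicate 3, 4 of 21 were lower and 0 higher at the adjusted p, beside 4.93% and 3.03%. The median was -0.11 without that replicate and 0.0058 against it alone. THBS1, thrombospondin 1, came closest to the adjusted p by edgeR with all 6 libraries. It was at 714, 730.3 and 727 cpm with GFOGER and 905, 911 and 989.5 cpm with IKVAV. The groups were well apart and the difference was -0.37 (SE 0.0728, adjusted p 0.0592), with -0.33 without IKVAV replicate 3 and -0.46 against it alone, both with an adjusted p below 0.05. Fibronectin, FN1, was at 108 to 126 cpm over the 6 libraries and the collagenase MMP1 at 5.41 to 6.90 cpm. TIMP2, an inhibitor of metalloproteinases, was at 117, 128 and 108 cpm with GFOGER and 95.2, 90.2 and 94.7 cpm with IKVAV (0.33, adjusted p 0.175). TIMP1, of the same family, was at 29.4, 29.9 and 24.8 cpm with GFOGER and 20.8, 16.5 and 44.0 cpm with IKVAV, so that its difference was 0.59 without IKVAV replicate 3 and -0.66 against it alone, each with an adjusted p below 0.05. Of 25 genes of the actin cytoskeleton and focal adhesion 1 was higher and 0 lower at an unadjusted p below 0.05, beside 5.24% and 5.92% of all genes. When IKVAV replicate 3 was left out these counts were 3 higher and 0 lower of 26, beside 10.1% and 12.6%, and against it alone 1 higher and 7 lower, beside 8.76% and 7.85%. Of 17 YAP/TAZ targets 1 was higher and 4 lower at an unadjusted p below 0.05 with all 6 libraries, beside 5.24% and 5.92%. Of these targets PTPN14, a phosphatase that restrains YAP, was at 133, 154 and 144 cpm with GFOGER and 199.6, 199.7 and 157 cpm with IKVAV (-0.37, adjusted p 0.175).

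The differences of estrogen response genes depended on IKVAV replicate 3. Of 23 tested 3 were higher and 1 lower at an unadjusted p below 0.05 with all 6 libraries, beside 5.24% and 5.92% of all genes. Without IKVAV replicate 3, 7 were higher and 2 lower at that level, beside 10.1% and 12.6%. At the adjusted p 3 were higher and 1 lower in that fit, beside 3.03% and 4.93%. The differences lay between -0.29 and 0.88 without IKVAV replicate 3 and between -1.32 and 0.49 against it alone. The medians were -0.06 and -0.13, and 13 and 16 of the 23 genes had a lower average with GFOGER. ESR1, the estrogen receptor, was at 263, 290.3 and 279 cpm with GFOGER and 326, 322 and 282 cpm with IKVAV (-0.16, adjusted p 0.484). PGR, the progesterone receptor and an estrogen target, was at 1239, 1316 and 1383 cpm with GFOGER and 1483, 1331 and 2049 cpm with IKVAV (-0.30, adjusted p 0.421), with IKVAV replicate 3 above the rest. CA12, a carbonic anhydrase of the cell surface that estrogen raises, was at 1905, 1925 and 1923 cpm with GFOGER and 1646, 1709 and 1579 cpm with IKVAV (0.22, adjusted p 0.285). Of the ferritin chains, which store iron, FTH1 was at 1144, 1159 and 1108 cpm with GFOGER and 953, 1029.7 and 791 cpm with IKVAV, and FTL at 257, 249.9 and 247 against 219, 217 and 144 cpm. Neither passed the adjusted p (0.244 and 0.322), and both genes have processed copies that can share reads. ASNS, asparagine synthetase and a target of ATF4, was at 29.4, 23.3 and 26.7 cpm with GFOGER and 33.8, 36.3 and 37.3 cpm with IKVAV (-0.44, adjusted p 0.175). At an unadjusted p below 0.05 with all 6 libraries, beside 5.24% and 5.92% of all genes, 2 genes were higher and 3 lower of 17 of the ATF4 response, 2 higher and 0 lower of 12 of endoplasmic reticulum stress, 2 higher and 1 lower of 24 of hypoxia and glycolysis, 3 higher and 0 lower of 13 NRF2 targets with ferritin, and 0 higher and 2 lower of 27 of epithelial junctions, GJA1 among them.

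Larger differences that missed the adjusted p were also found. SLITRK6, a transmembrane protein known from neurons, was at 16.3, 12.5 and 14.4 cpm with GFOGER and 4.18, 7.26 and 9.24 cpm with IKVAV (1.05, SE 0.221, adjusted p 0.0947). LCN2, lipocalin 2, which binds iron-carrying siderophores, was at 113, 104 and 100.5 cpm with GFOGER and 66.9, 70.3 and 38.5 cpm with IKVAV (0.85, SE 0.194, adjusted p 0.175). GPR132, a G protein-coupled receptor, was at 7.04, 8.65 and 8.25 cpm with GFOGER and 20.7, 16.7 and 11.01 cpm with IKVAV (-1.01, SE 0.199, adjusted p 0.0653). All 3 were chosen on condition that the groups were apart, and in each the IKVAV libraries spread more than the GFOGER libraries. CLEC3A, a C-type lectin, was at 11.4, 10.1 and 13.4 cpm with GFOGER and 28.7, 35.7 and 11.1 cpm with IKVAV. Its difference was -1.47 (adjusted p 4.39e-08) without IKVAV replicate 3 and 0.07 against it alone.

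Several low genes had the next largest differences, and none of them passed the adjusted p with all 6 libraries. CHRM1, a muscarinic acetylcholine receptor, was at 4.83, 5.58 and 4.50 cpm with GFOGER and 2.30, 3.32 and 2.80 cpm with IKVAV (0.82, adjusted p 0.175). HES6, a transcription factor of the Hes family, was at 4.71, 6.62 and 6.49 against 3.56, 2.82 and 3.83 cpm (0.80). FAM171A2 was at 5.88, 5.58 and 4.62 against 3.00, 2.50 and 3.71 cpm (0.80), and ANKRD9 at 15.1, 19.4 and 13.6 against 10.6, 6.64 and 10.6 cpm (0.78). These 4 were higher with GFOGER. Lack of overlap was a condition for naming the genes of this paragraph. For ANKRD9 IKVAV replicate 2 lay below the other IKVAV libraries. On the lower side DNAH1, a dynein heavy chain of cilia, was at 3.49, 3.37 and 3.68 cpm with GFOGER and 7.11, 7.33 and 5.23 cpm with IKVAV (-0.90, adjusted p 0.098). NEK10, a kinase, was at 3.30, 2.82 and 3.10 against 4.60, 6.01 and 6.26 cpm (-0.87). The transcription factor ZFHX4 was at 6.36, 5.70 and 6.90 against 13.0, 15.1 and 7.24 cpm (-0.89), with IKVAV replicate 3 next to the GFOGER libraries. LOC100271836 (-0.92) and the protocadherin PCDHGA5 (-0.89) were also lower without overlap, and since gamma protocadherins share exons the reads of PCDHGA5 may belong to its neighbors.

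Without IKVAV replicate 3 the largest increases with GFOGER took in 3 genes that this library turned. KCNJ2, an inward rectifier potassium channel, was at 7.10, 6.74 and 7.25 cpm with GFOGER and 3.56, 1.82 and 9.79 cpm with IKVAV. Its difference was 1.40 (adjusted p 0.000323) without IKVAV replicate 3, -0.48 (adjusted p 0.171) against it alone and 0.46 (adjusted p 0.81) with all 6 libraries. SLC2A10, a glucose transporter, was at 13.1, 13.6 and 11.7 against 5.79, 5.70 and 13.99 cpm, with 1.15 (adjusted p 5.04e-05) without that library and -0.13 against it alone. FIBCD1, which binds chitin, was at 7.89, 8.77 and 7.43 against 4.39, 3.44 and 8.09 cpm, with 1.04 (adjusted p 0.000989) and -0.017. In all 3 genes IKVAV replicate 3 lay within or above the GFOGER range.

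The same comparison in MDA-MB-231 cells, an ER- basal line in the same matrices, had 3 libraries with GFOGER and 2 with IKVAV. There 6026 of 14092 genes (42.8%) had an adjusted p below 0.05. Of the 15 T47D genes 13 were tested in it, 7 had an adjusted p below 0.05, and 8 had the sign they had in T47D cells. FOSB, JMY, MALAT1 and GJA1 were lower with GFOGER in MDA-MB-231 cells too, at -0.92, -0.76, -0.55 and -0.78, and UBE2S was higher, at 0.62. GPNMB went the opposite way, at -1.31 (adjusted p 1.13e-06), and so did NPC2, at -0.38 (adjusted p 0.00202). The interaction of cell line and mimic had an adjusted p below 0.05 for 7 of the 15 genes, beside 21% of the 15320 genes tested. The interaction contains the T47D difference that chose these genes, so nothing is read from that share.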

How the data were processed

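T47D cells were cultured for 3 days in matrices with GFOGER or IKVAV and their poly(A) RNA was sequenced. Per the submitters' processing notes the tools were Trim Galore 0.4.4, FastQC, TopHat2 2.1.0, SAMtools 1.4, bedtools 2.17, HTSeq 0.6.1p1 and edgeR 3.16.5, with reads aligned to hg19. The gene annotation and how strand was treated in the counting are not given in the sources used here, so reads from overlapping genes may be shared. The table deposited by the authors holds unnormalized read counts per gene and library and RPKM values. The RPKM values the authors deposited were used only for the library totals they imply.

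Of 24656 entries, 1288 that repeat a symbol were left out, and 4 of these had a count. The counts were analysed in R 4.3.3 with edgeR 4.0.16 (TMM, filterByExpr at its defaults, robust quasi-likelihood fit), limma 3.58.1 and DESeq2 1.42.0, with Benjamini-Hochberg adjustment. Libraries were grouped by the labels. Nothing in these says that replicates came from separate cultures, so p-values measure the spread between these samples, which may be technical. The labels do not say that the replicate numbers pair the libraries, and the main test did not treat them as a pairing. The deviations of same-numbered libraries from their group means had correlations across genes of -0.0209, -0.0805 and 0.0356. On simulated data for this comparison the test recovered 199 of 200 genes changed by 1.5 (log2) among 13545, with 6 false calls. The changed genes were drawn only from those above a minimum level. The simulated libraries varied independently, without the shift of IKVAV replicate 3. Recovery of smaller changes, of low genes or under such a shift was not tested.

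The genes, lists and tests were chosen with earlier results of these data known. Genes were named where the adjusted p was below 0.05, among the 10 largest changes in each direction (unadjusted p below 0.05, average log2 cpm of at least 2, no overlap of the mimics), as the gene of smallest p in each list or of highest level in each role, as genes the study measured on its own, or among the 5 largest changes in each direction without IKVAV replicate 3. AHR, TIPARP, FOSL2, KLF4, MYC, EGR3, HSPA1A, HSPA1B, SCD, EBP, PCNA, ISG15, FTL, ITGA2 and ITGA6 were named outside this rule, after their values were seen. Of the 106 genes that met the rule, some that stood only for a list or role are given through the counts of their list, and single results are not reported here for all of them. Promoters are from RefSeq. Alternatives were the exact and likelihood ratio tests of edgeR, DESeq2, voom with sample weights, other normalizations and filters, the replicate block, the RPKM library totals as a factor, all 4 groups in one fit, a fold limit inside the test, and leaving out each library.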

Additional observations from a re-analysis of the deposited data

Results flagged for a closer look

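The response to the mimic differed between T47D and MDA-MB-231 cells, by the interaction test over all 11 libraries with counts (edgeR's quasi-likelihood test, 15320 genes), for 7 of the 15 genes with an adjusted p below 0.05 in T47D cells, beside 21% of all genes. The interaction contains the T47D difference that chose these 15 genes, so the shares are not compared. Values are the log2 difference between the mimics in T47D cells minus that in MDA-MB-231 cells. GPNMB differed by 2.22 (adjusted p 2.72e-09), higher with GFOGER in T47D cells and lower in MDA-MB-231 cells, and so did NPC2, by 0.80 (adjusted p 2.75e-05). C17orf79 differed by 0.71 (adjusted p 0.00311) and PHYH by 0.55 (adjusted p 0.0115), both with MDA-MB-231 values near 0. For CYP1A1 the value was -0.93 (adjusted p 0.00513), for RBM3 -0.51 (adjusted p 0.00217) and for IRS1 -0.41 (adjusted p 0.0201). The IRS1 value lost the threshold with the replicate block (-0.38, adjusted p 0.066), without GFOGER replicate 1 (-0.38, adjusted p 0.0655) and without IKVAV replicate 1 (-0.36, adjusted p 0.0514). The RPKM library totals are also mixed among the MDA-MB-231 IKVAV libraries, of which there are 2, and their part in these differences was not tested.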

How the results depend on the processing

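The count of called genes was 4 with all 6 libraries and 34 by the exact test, 35 by the likelihood ratio test, 146 by voom, 0 with the 2-fold limit inside the test, 2 with library size alone, 18 with no filter, 9 with the replicate block, 49 with the RPKM library totals as a factor and 72 against IKVAV replicate 3 alone. Leaving out 1 library gave 0 to 92, the highest without IKVAV replicate 3. The count at an adjusted p below 0.05 was 15, and 78 by DESeq2, 165 by the exact test, 166 by the likelihood ratio test, 1508 by voom, 0 with the limit inside the test, 122 with no filter, 69 with the replicate block, 30 with all 4 groups, 366 with the RPKM totals as a factor, 550 against IKVAV replicate 3 alone and, in an alternative chosen after seeing the data, 6 with no robust estimate of the spread. Leaving out 1 library gave 2 to 1101. The unadjusted count was 1522, and 3632 by voom, 16 with the limit inside the test, 2323 against IKVAV replicate 3 alone, and 821 to 3140 with 1 library left out. Why the counts changed between settings was not tested.

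The 15 genes kept their sign in every leave-one-out fit, which reuse the values that chose them. The other settings reuse these values too. With the RPKM totals as a factor the mimics are compared only between the GFOGER libraries and IKVAV replicate 3, which share a set. That setting therefore repeats the comparison against IKVAV replicate 3 alone and is not a separate check. All 15 kept an adjusted p below 0.05 by DESeq2, the exact and likelihood ratio tests, voom, no filter, the replicate block, the RPKM factor, without IKVAV replicate 3 and against it alone, and 14 with upper-quartile normalization or at least 10 counts in every library, 13 with all 4 groups, 10 with library size alone, 6 with no robust estimate, and 2 to 11 without another library. The interaction of IRS1 lost the threshold with the block (-0.38), without GFOGER replicate 1 and without IKVAV replicate 1. The labels do not say whether the replicate numbers pair the samples.

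Signs turned with the RPKM factor and against IKVAV replicate 3 alone for NQO1 (0.13 and 0.12), FOS (0.13 and 0.13), HSPA1A (0.046 and 0.041), HSPA1B (0.53 and 0.53), PCNA (-0.30 and -0.31), TIMP1 (-0.65 and -0.66) CLEC3A (0.070 and 0.065), KCNJ2 (-0.47 and -0.48), SLC2A10 (-0.13 and -0.13) and FIBCD1 (-0.011 and -0.017). EGR3 turned to the GFOGER side by voom (0.52) and with 1 library left out ranged from -0.64 to 0.74, the latter without IKVAV replicate 3. Ranges with 1 library left out also crossed 0 for PCNA (-0.028 to 0.38), TIMP1 (-0.22 to 0.59) and the interaction of MALAT1 (-0.23 to 0.0077).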
